A study of Mus musculus with 6 samples.

Results

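The D cyclins and the G1 kinase machinery were followed as 10 genes among the 23999 gene symbols of the count table of mouse embryonic stem cells. They were chosen by name: the D cyclin genes Ccnd1, Ccnd2 and Ccnd3, the kinase genes Cdk4 and Cdk6, the inhibitor genes Cdkn1b and Cdkn2a, and the RB family genes Rb1, Rbl1 and Rbl2. All 10 were in the table and all 10 passed the filter on low counts, as did 14458 genes in all. Polyadenylated RNA had been sequenced from cells that carried a floxed element named -5 and exogenous mNanogV5, a V5-tagged mouse Nanog, in every sample of both groups. The cells received ethanol vehicle (n = 3) or 4-hydroxytamoxifen, written 4OHT (n = 3), for 6 days. The series concerns an enhancer of Nanog, so the comparison asks how the G1 machinery stood once cells with the floxed element had been treated. The sources used here do not name the Cre line, the number of clones or whether replicates were separate cultures, so p-values measure the spread between these samples only.

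Cells enter S phase once cyclin-dependent kinases have phosphorylated the RB family proteins. D cyclins bind CDK4 or CDK6 and start this phosphorylation, which frees E2F transcription factors from the RB family and lets genes of DNA synthesis be transcribed. The INK4 proteins block CDK4 and CDK6, and p27, the product of Cdkn1b, binds complexes of cyclins with their kinases. Mouse embryonic stem cells are known for a short G1 phase and for keeping much of their RB protein phosphorylated.

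Among the 10 genes, Ccnd2 fell most, to 32.6% of its vehicle level, while Ccnd1 and Cdk6 fell by smaller amounts and Rb1 rose slightly. In edgeR's quasi-likelihood test with Benjamini-Hochberg adjustment over all tested genes, 3 members fell, 1 rose and 6 did not pass. Over all tested genes, 22.4% passed, 11.9% as rises and 10.5% as falls. The members' median log2 fold change was -0.05 against 0 for all tested genes. DESeq2 with all libraries called 2 of the 10, the falls of Ccnd1 and Ccnd2, and 0 rises (0 also at an unadjusted p under 0.05), beside 6.6% of its tested genes. The list was chosen by function with earlier results of these data known, so its counts are a description.

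**Figure D1:**
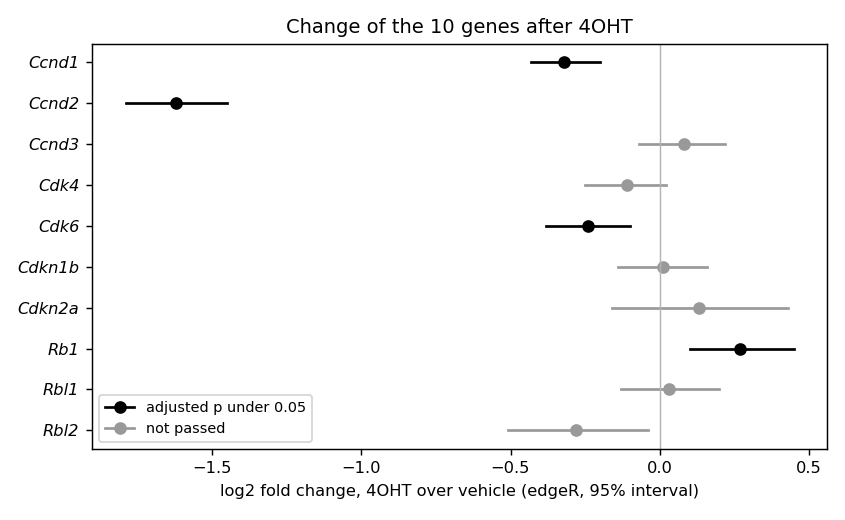
Change of the 10 genes after 4OHT, as log2 fold change over vehicle on the horizontal axis with the 95% interval of the edgeR model, in black where the adjusted p is under 0.05. Ccnd2 stands apart at -1.62, while the other 9 genes lie between -0.32 and 0.27.

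The libraries held 515388 to 55194644 counts. The lowest total is that of 4OHT replicate 2, where 1 read is worth 1.91 CPM (counts relative to the library total, scaled by TMM factors) and 2028 tested genes had no read. In the other 5 libraries 1 read is worth 0.0183 to 0.0498 CPM. Nanog, the check of the treatment, stood at 631, 660 and 641 CPM in vehicle and at 177, 172 and 194 CPM in 4OHT cells, although the row may also hold reads of the tagged copy. Of 10 stem cell markers, 2 rose (Sox2 and Fbxo15), 1 fell (Pou5f1, log2 fold change -0.21, edgeR adjusted p = 0.014) and 7 did not pass. Their summed level was 7110 to 7280 CPM in vehicle and 7110 to 7460 CPM in 4OHT cells. Markers of endoderm and of the 2-cell-like state moved with the treatment. For primitive and visceral endoderm, 9 of 10 tested markers (of 12) rose, from a sum of 8.69 to 10 CPM to one of 53.5 to 69.2 CPM, with Ttr at 0 in all libraries. For the 2-cell-like state, 8 of 8 markers rose, from 7.99 to 8.51 CPM to 24.8 to 25.7 CPM. For fibroblast feeder cells, 1 of 4 tested markers (of 8) fell, Thy1, and the sum went from 24.4 to 26.1 CPM to 14 to 19.1 CPM, with Postn at 0 in all libraries. The lower sum came from Thy1, whose mean went from 15.9 to 6.67 CPM. Col1a1, Col1a2 and Pdgfrb did not pass (log2 fold changes 0.1, 0.9 and -0.2, edgeR adjusted p = 0.768, 0.0995 and 0.238). The part of these cell states in the changes of the 10 genes was not tested, and in bulk RNA fewer cells of a type and less RNA per cell cannot be told apart.

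The promoter windows below set members that share a role side by side. RefSeq on GRCm38.p6, which is a later assembly than the mm9 of the submitters' processing notes, gave windows for 7 of the 10 genes (all but Ccnd1, Ccnd2 and Rb1), 9 windows in all. Each is the 250 bases before an annotated start, 5′ to 3′. Capitals mark any of 4 spellings of an E2F site (TTTCGCGC, TTTGGCGC, TTTCCCGC, TTTGCCGC) or the E-box CACGTG, searched on both strands. The first pair belongs to Cdkn2a, which has separate starts for ARF and for the INK4 protein p16 that lie 12427 bases apart, while the table gives the gene 1 row. The second pair belongs to the D cyclin kinases, and the third to the RB family genes Rbl1 and Rbl2.
Cdkn2a, upstream start (ARF), chr4:89294620-89294869, minus strand: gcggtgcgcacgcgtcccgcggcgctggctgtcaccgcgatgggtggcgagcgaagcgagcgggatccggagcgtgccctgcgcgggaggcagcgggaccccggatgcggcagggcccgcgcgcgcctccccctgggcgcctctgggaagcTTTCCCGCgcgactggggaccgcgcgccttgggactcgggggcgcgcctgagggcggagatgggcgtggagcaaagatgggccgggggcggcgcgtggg
Cdkn2a, downstream start (p16), chr4:89282193-89282442, minus strand: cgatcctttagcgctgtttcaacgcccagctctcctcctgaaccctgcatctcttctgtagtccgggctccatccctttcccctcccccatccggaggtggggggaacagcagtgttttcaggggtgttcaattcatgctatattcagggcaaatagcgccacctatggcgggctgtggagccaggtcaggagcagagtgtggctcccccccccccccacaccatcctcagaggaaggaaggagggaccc
Cdk4, chr10:127063285-127063534, plus strand: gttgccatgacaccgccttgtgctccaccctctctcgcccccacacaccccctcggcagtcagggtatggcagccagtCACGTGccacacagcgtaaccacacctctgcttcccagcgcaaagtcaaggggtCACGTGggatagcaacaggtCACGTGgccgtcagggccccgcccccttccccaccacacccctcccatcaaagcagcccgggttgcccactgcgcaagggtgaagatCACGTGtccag
Cdk6, chr5:3343643-3343892, plus strand: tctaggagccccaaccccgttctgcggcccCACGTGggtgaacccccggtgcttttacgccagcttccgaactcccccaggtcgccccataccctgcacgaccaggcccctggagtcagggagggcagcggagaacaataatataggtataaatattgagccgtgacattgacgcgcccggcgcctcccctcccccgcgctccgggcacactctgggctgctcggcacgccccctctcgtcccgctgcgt
Rbl1, chr2:157204535-157204784, minus strand: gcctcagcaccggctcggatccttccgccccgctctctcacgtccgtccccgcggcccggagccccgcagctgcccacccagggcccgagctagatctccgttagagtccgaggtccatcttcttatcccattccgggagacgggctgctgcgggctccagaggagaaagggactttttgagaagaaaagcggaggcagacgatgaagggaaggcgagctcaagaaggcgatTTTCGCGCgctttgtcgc
Rbl2, chr8:91069807-91070056, plus strand: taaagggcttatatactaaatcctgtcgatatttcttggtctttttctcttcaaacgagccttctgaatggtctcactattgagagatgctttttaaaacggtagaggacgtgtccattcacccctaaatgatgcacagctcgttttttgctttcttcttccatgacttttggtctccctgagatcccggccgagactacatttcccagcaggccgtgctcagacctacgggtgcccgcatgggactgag
The upstream Cdkn2a window holds TTTCCCGC, which begins 99 bases before the start, and the downstream window holds none of the 5 letter strings. Rbl1 holds TTTCGCGC, beginning 18 bases before its start, and Rbl2 holds none of the strings. The windows of Cdkn1b and Ccnd3, which are not printed, hold none of them either. One or more of the 4 E2F spellings occurs in 1.86% of 32851 such windows, and TTTCGCGC in 0.256%. Cdk4 holds CACGTG 4 times, which 7 of the 32851 windows (0.0213%) match or exceed, and Cdk6 holds it once. CACGTG occurs in 6.02% of all windows. The printed windows were picked with their matches known, so these shares are a description. A match is a string of letters, and no binding was measured here.

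Ccnd2 encodes cyclin D2. Its level was 44.8, 47.3 and 52.9 CPM in the vehicle libraries and 15.8, 17.2 and 15.5 CPM in the 4OHT libraries. All 3 values of the 4OHT group lay far below the lowest vehicle value. The mean went from 48.3 ± 4.17 CPM to 16.2 ± 0.886 CPM (SD, n = 3 each), a log2 fold change of -1.62 (edgeR adjusted p = 2.94e-11, SE 0.08, 95% interval -1.79 to -1.45), or a 3.07-fold fall. Of the 14458 tested genes, 1.02% had a larger absolute log2 fold change, and 1.51% were called lower by at least 2-fold. The gene had 9 reads in 4OHT replicate 2, that is 17.2 CPM with an exact 95% Poisson interval of 7.86 to 32.6 CPM that covers counting error only. Without that library the log2 fold change was again -1.62 (edgeR adjusted p = 2.96e-07). The opposite-strand gene 9330179D12Rik, which overlaps 3.91% of its exon bases, had at most 1 count in any library. Ccnd2 lies on chromosome 6 in the GRCm38 annotation, as do Nanog and Cdkn1b.

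Ccnd1, which encodes cyclin D1, fell to 80.3% of its vehicle level. Its values were 244, 240 and 246 CPM in vehicle and 196, 191 and 196 CPM in 4OHT cells. The groups did not overlap, and the spread within each was small: the means were 243 ± 2.82 and 194 ± 2.87 CPM (SD, n = 3 each). The 191 CPM of 4OHT replicate 2 rests on 100 reads, with an exact 95% Poisson interval of 155 to 232 CPM. The 4OHT SD is thus smaller than the counting error of that library. The fall was by 0.32 on the log2 scale (edgeR adjusted p = 0.000308, SE 0.06, 95% interval -0.43 to -0.2). A neighbouring gene on the opposite strand, Oraov1, overlaps 23.4% of the exon bases of Ccnd1, and the sources used here do not say whether the counting used strand. Oraov1 had 432, 167 and 214 counts in vehicle and 399, 5 and 213 in 4OHT cells, far below the 12890, 4824 and 6456 against 10703, 100 and 6009 counts of Ccnd1, and did not pass the test (log2 fold change -0.19, edgeR adjusted p = 0.216).

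Ccnd3, the gene of cyclin D3, did not pass. It stood at 446, 474 and 457 CPM in vehicle and at 430, 506 and 528 CPM in 4OHT cells. The 4OHT values spanned those of the vehicle group, with replicate 1 below and replicates 2 and 3 above all of them. The log2 fold change was 0.08 (95% interval -0.07 to 0.22, edgeR adjusted p = 0.483). The log2 fold change of Ccnd3 was 0.19 without 4OHT replicate 1 (edgeR adjusted p = 0.00918) and -0.03 without 4OHT replicate 3 (edgeR adjusted p = 0.765). Bysl, on the opposite strand, overlaps 4.11% of the Ccnd3 exon bases and had a log2 fold change of 0.07 (edgeR adjusted p = 0.456).

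**Figure D2:**
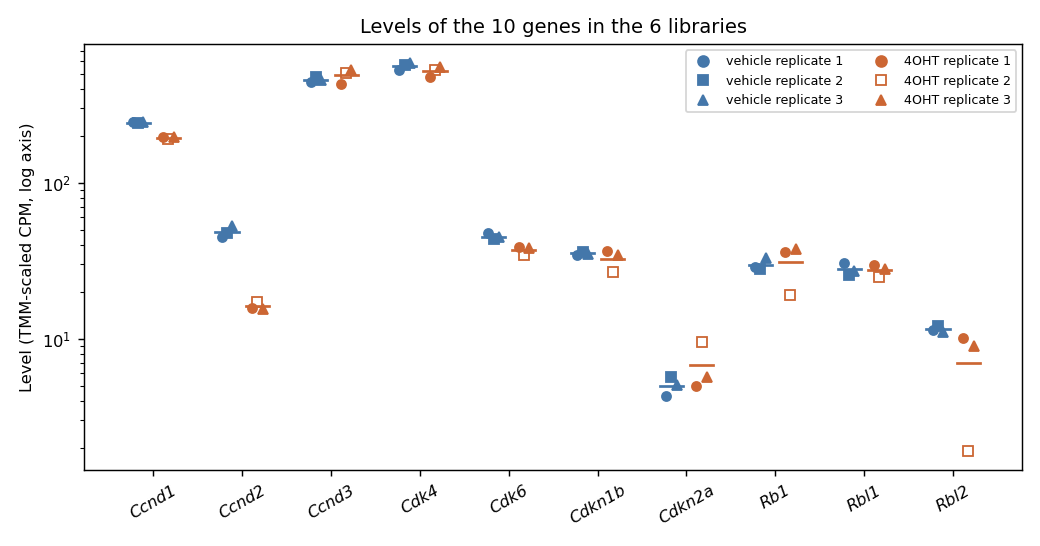
Level of each gene in the 6 libraries, as TMM-scaled CPM on a log axis, with vehicle in blue, 4OHT in orange, and a bar at each group mean. The open square is 4OHT replicate 2, the shallow library, which lies away from the other 4OHT values for Cdkn1b, Cdkn2a, Rb1 and Rbl2. Ccnd2 shows the widest gap between groups.

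Within the D cyclin family the balance differed between the groups. Levels of different genes are compared here per kilobase of annotated exons, since longer transcripts yield more reads. Ccnd3 made up 47.3%, 49.1% and 47.4% of the summed D cyclin level in vehicle and 53.2%, 57.6% and 58.1% in 4OHT cells. The share of Ccnd1 was 48.2%, 46.3% and 47.5% in vehicle and 45%, 40.5% and 40.3% in 4OHT cells. Ccnd2 was the minor D cyclin in all 6 libraries, with 4.44%, 4.56% and 5.12% in vehicle and 1.82%, 1.83% and 1.6% in 4OHT cells. For each of the 3 shares all 4OHT values lay on one side of all vehicle values. The 3 shares add up to the whole, so they are not separate results. The level of Ccnd3 itself did not pass (edgeR adjusted p = 0.483), and its share also rises when Ccnd1 and Ccnd2 fall. The mean differences were 8.38 points for Ccnd3, -5.42 for Ccnd1 and -2.96 for Ccnd2 (two-sided exact permutation p = 0.1 each, the smallest that 3 against 3 can give, and 0.175 adjusted over the 7 shares tested). The ratio of Ccnd3 to Ccnd2 per kilobase went from 10.2 ± 0.844 to 32.4 ± 3.67, and that of Ccnd1 to Ccnd2 from 10.1 ± 0.795 to 24.1 ± 1.63 (SD, n = 3 each). The 3 D cyclins together summed to 107, 110 and 110 CPM per kilobase in vehicle and to 92.3, 100 and 103 in 4OHT cells (exact permutation p = 0.1). The summed level thus lay lower in all 3 treated libraries, with Ccnd3 and Ccnd1 making up most of it in both groups.

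**Figure D3:**
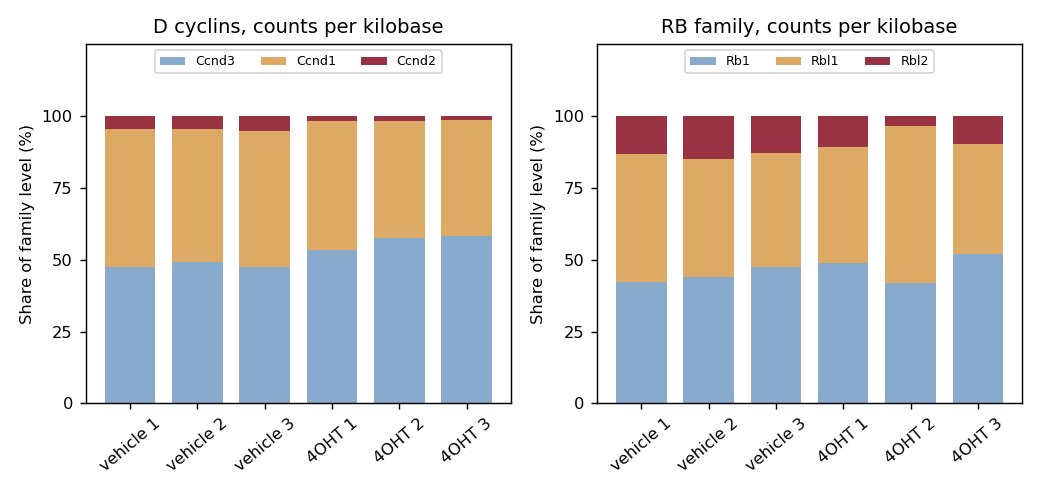
Share of each gene in the summed level of its family, in percent of counts per kilobase, for the D cyclins on the left and the RB family on the right, with 1 bar per library. The Ccnd2 band shrinks from at least 4.44% in vehicle to at most 1.83% in 4OHT cells, and the Rbl2 band of 4OHT replicate 2 rests on 1 read.

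Of the D cyclin kinases, Cdk6 fell slightly and Cdk4 did not pass. Cdk6 stood at 47.3, 43.3 and 44.7 CPM in vehicle and at 38.8, 34.4 and 38.1 CPM in 4OHT cells. The groups did not overlap, although the gap between 43.3 and 38.8 CPM was narrow. The 34.4 CPM of 4OHT replicate 2 rests on 18 reads, and its Poisson interval of 20.4 to 54.3 CPM covers all vehicle values. Cdk6 had a log2 fold change of -0.24 (edgeR adjusted p = 0.0137, SE 0.07, 95% interval -0.38 to -0.1). It did not pass in edgeR without vehicle replicate 1 (adjusted p = 0.0653), and DESeq2 with all libraries gave an adjusted p of 0.295. Cdk4 stood at 527, 568 and 583 CPM in vehicle and at 476, 531 and 551 CPM in 4OHT cells, with overlapping groups. Its log2 fold change was -0.11 (95% interval -0.25 to 0.02, edgeR adjusted p = 0.24), and -0.19 without 4OHT replicate 3 (edgeR adjusted p = 0.0283). Tspan31, on the opposite strand, overlaps 19.7% of the Cdk4 exon bases and had a log2 fold change of -0.19 (edgeR adjusted p = 0.0781). Per kilobase, Cdk4 was the dominant kinase in every library: Cdk6 made up 2.04%, 1.74% and 1.75% of their sum in vehicle and 1.86%, 1.48% and 1.58% in 4OHT cells (exact permutation p = 0.3). The D cyclin sum over the kinase sum, both per kilobase, was 0.623 ± 0.0231 in vehicle and 0.607 ± 0.00911 in 4OHT cells (SD, n = 3 each, exact permutation p = 0.4), with overlapping values.

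Neither inhibitor gene passed the test. Cdkn1b, which encodes p27, stood at 34.5, 36.1 and 35 CPM in vehicle and at 36.7, 26.7 and 34.4 CPM in 4OHT cells. The value of 26.7 CPM comes from 14 reads of the shallow library, and the other values lie close together. The log2 fold change was 0.01 with a 95% interval of -0.14 to 0.16 (edgeR adjusted p = 0.965), and in DESeq2 it was -0.02 (SE 0.14). Cdkn2a, whose 2 starts encode ARF and p16 in different reading frames, was low, with 4.29, 5.68 and 5.06 CPM in vehicle and 5.01, 9.55 and 5.68 CPM in 4OHT cells. The highest of these rests on 5 reads, with a Poisson interval of 3.1 to 22.3 CPM. The log2 fold change of Cdkn2a was 0.13 (95% interval -0.16 to 0.43, edgeR adjusted p = 0.554); the row does not separate the 2 products.

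In the RB family, Rb1 rose slightly, Rbl2 was lower in all 4OHT libraries without passing the test, and Rbl1 did not pass. Rb1, which encodes the retinoblastoma protein, stood at 29, 27.9 and 32.7 CPM in vehicle and at 35.8, 19.1 and 37.7 CPM in 4OHT cells. The 2 deep 4OHT libraries lay above all vehicle values and the shallow one, with 10 reads, lay below them. The group means were therefore nearly equal (29.9 ± 2.53 and 30.9 ± 10.2 CPM, SD, n = 3 each), while the model, which weighs libraries by depth, gave a log2 fold change of 0.27 (edgeR adjusted p = 0.0257, SE 0.09, 95% interval 0.1 to 0.45). Without the shallow library the value was 0.3 (edgeR adjusted p = 0.0161). The call was lost without vehicle replicate 1 (edgeR adjusted p = 0.101), without vehicle replicate 2 (0.146), in DESeq2 with all libraries (0.708) and in limma-voom with quantile normalization (0.131). Rcbtb2 and Lpar6, on the opposite strand, overlap 8.11% and 6.78% of the Rb1 exon bases and rose too, with log2 fold changes of 0.37 and 0.55 (edgeR adjusted p = 0.00375 and 0.00611). The part of their reads in the Rb1 count was not tested.

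Rbl2, which encodes the pocket protein p130, stood at 11.4, 12 and 11.1 CPM in vehicle and at 10.1, 1.91 and 8.95 CPM in 4OHT cells. All 4OHT values were lower, but the lowest is a single read, with a Poisson interval of 0.0483 to 10.6 CPM. The log2 fold change was -0.28 (95% interval -0.51 to -0.04, edgeR adjusted p = 0.0818). In edgeR it passed in a fit blocked on replicate number (adjusted p = 0.049, where 28.2% of all tested genes passed) and in one that left out 4OHT replicate 1 (0.0142), but not without the shallow library (0.07). Aktip, on the opposite strand, overlaps 9.17% of the Rbl2 exon bases and had a log2 fold change of -0.22 (edgeR adjusted p = 0.0583). Rbl1, which encodes p107, stood at 30.5, 25.8 and 27.1 CPM in vehicle and at 29.6, 24.8 and 27.8 CPM in 4OHT cells. Its groups overlapped throughout (log2 fold change 0.03, 95% interval -0.13 to 0.2, edgeR adjusted p = 0.859).

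The share of Rbl2 in the summed RB family level per kilobase was 13.2%, 15.1% and 12.8% in vehicle and 10.9%, 3.34% and 9.79% in 4OHT cells, without overlap (exact permutation p = 0.1, adjusted 0.175). Rb1 and Rbl1 made up the rest, 44.6% ± 2.73 and 41.7% ± 2.57 in vehicle and 47.5% ± 5.06 and 44.5% ± 8.92 in 4OHT cells (SD, n = 3 each, exact permutation p = 0.5 and 0.9). In 4OHT replicates 1 and 3 Rb1 made up 48.7% and 51.8%, and Rbl1 40.4% and 38.4%. In the shallow replicate 2 Rb1 made up 41.9% and Rbl1 54.7%, on 10 and 13 reads. Without that library the differences from vehicle were 5.67 points for Rb1 and -2.32 for Rbl1. Across the 10 genes, the groups did not overlap for Ccnd1, Ccnd2, Cdk6 and Rbl2, all lower in 4OHT cells, and for none in the other direction. Over all tested genes 31.3% did not overlap, 16.5% lying lower and 14.7% higher.

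In the order of the 10 genes by level per kilobase, Ccnd2, Cdkn2a and Cdk6 took other places in 4OHT cells than in vehicle. In vehicle the order ran from Cdk4 (172 CPM per kilobase) over Ccnd3 (52.3), Ccnd1 (51.6), Cdkn1b (7.74), Ccnd2 (5.14), Rb1 (4.96), Rbl1 (4.64), Cdkn2a (4.27) and Cdk6 (3.22) to Rbl2 (1.52). Neighbours from Ccnd2 to Cdkn2a overlapped in their ranges, as did Ccnd3 and Ccnd1. In 4OHT cells it ran from Cdk4 (160) over Ccnd3 (55.6), Ccnd1 (41.2), Cdkn1b (7.17), Cdkn2a (5.75), Rb1 (5.13), Rbl1 (4.57), Cdk6 (2.65) and Ccnd2 (1.72) to Rbl2 (0.924), where the ranges of neighbours from Cdkn1b to Rbl1 overlapped and those of Ccnd3 and Ccnd1 did not. Ccnd2 thus went from place 5 to place 9 and below Cdk6, and it took the same places when the longest transcript gave the length. Cdkn2a went from place 8 to place 5, with a 4OHT mean that includes 8.15 CPM per kilobase from the 5 reads of the shallow library, and its range overlapped those of its new neighbours. In 4OHT replicates 1 and 3 Cdkn2a stood at 4.27 and 4.85 CPM per kilobase, below Rb1 at 5.95 and 6.27. In the shallow library Rb1 stood at 3.17, below Cdkn2a. With the longest transcript Cdkn2a took place 4. Cdk6 went from place 9 to place 8.

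The other genes of the G1 pathway changed little. Of 60 tested genes in 7 lists, 2 rose, 4 fell and 54 did not pass, so that 10% were called beside 22.4% of all tested genes. A fit blocked on replicate number called 13 of the 60, and 28.2% of all tested genes. At an unadjusted p under 0.05 edgeR had 6 of them higher and 8 lower, and DESeq2 with all libraries called 1, the MuvB partner Mybl2, beside 2 higher and 7 lower at an unadjusted p under 0.05. The median log2 fold change over the 60 genes was -0.02, and the median absolute change was 0.09 against 0.14 for all tested genes and 0.19 for the 10 members.

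Among the genes of cyclin E and A, CDK2 and its activators, 1 of 9 tested genes fell and none rose (median log2 fold change -0.05). Cdk2 stood at 84.6, 92.5 and 90.9 CPM in vehicle and at 73, 82.1 and 78.6 CPM in 4OHT cells, without overlap (log2 fold change -0.23, edgeR adjusted p = 0.0132). The call was lost without vehicle replicate 2 or 3 (edgeR adjusted p = 0.0695 and 0.0653), and without 4OHT replicate 1 edgeR called 2 rises and 2 falls in this list. The cyclin E1 gene Ccne1 had a log2 fold change of 0.12 (edgeR adjusted p = 0.195, and 0.0475 with the block). Ccna1, the germline cyclin A gene, had one of -0.77 from a vehicle level of 0.754 CPM (edgeR adjusted p = 0.12).

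Among the other CDK inhibitor genes, 1 of 5 fell and none rose (median log2 fold change -0.19). Cdkn1a, which encodes p21, stood at 34.9, 36.8 and 32.6 CPM in vehicle and at 27.3, 22.9 and 28.6 CPM in 4OHT cells. All treated values lay below the vehicle values (log2 fold change -0.32, SE 0.07, edgeR adjusted p = 0.00334). Among the 6 called list genes, Cdkn1a alone passed in edgeR with each single library left out, and DESeq2 with all libraries gave it an adjusted p of 0.159. The INK4 genes Cdkn2c and Cdkn2d had vehicle levels of 0.634 and 1.03 CPM, log2 fold changes of 0.59 and -0.43, and edgeR adjusted p of 0.118 and 0.232. Cdkn1c, which encodes p57, had a log2 fold change of -0.19 (edgeR adjusted p = 0.151).

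Of the 10 E2F and DP factor genes, 1 rose and 1 fell (2 and 1 with the block; median log2 fold change -0.06). Tfdp2, a DNA-binding partner of E2F factors, stood at 103, 93 and 105 CPM in vehicle and at 119, 109 and 114 CPM in 4OHT cells (log2 fold change 0.21, edgeR adjusted p = 0.0211). E2f8, an atypical E2F repressor, stood at 86.1, 82.9 and 83.3 CPM in vehicle and at 76.4, 78.3 and 69.3 CPM in 4OHT cells (-0.2, edgeR adjusted p = 0.0267). Neither gene overlapped between groups. In edgeR E2f8 did not pass without vehicle replicate 1, 2 or 3 (adjusted p = 0.0762, 0.0637 and 0.0749) or without 4OHT replicate 3 (0.117), and Tfdp2 did not without vehicle replicate 2 (0.232). In limma-voom with quantile normalization the adjusted p was 0.0608 for E2f8 and 0.0694 for Tfdp2. E2f3, an activating E2F, had a log2 fold change of 0.15 (edgeR adjusted p = 0.0855, and 0.0379 with the block), and E2f4, the main partner of p130, one of -0.11 (edgeR adjusted p = 0.171).

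In the list of the MuvB core and its partners, the proteins that join the RB family members p107 and p130 in repressing cell cycle genes or B-MYB and FOXM1 in activating them, 1 of 7 rose and none fell (median log2 fold change 0.01). Mybl2, which encodes B-MYB, stood at 776, 766 and 762 CPM in vehicle and at 872, 850 and 890 CPM in 4OHT cells. The groups did not overlap (log2 fold change 0.19, SE 0.06, edgeR adjusted p = 0.0199), but the call was lost without vehicle replicate 1, 2 or 3 (edgeR adjusted p = 0.0517, 0.144 and 0.089).

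Among 12 G1/S targets of E2F, genes of nucleotide synthesis and of DNA replication, 1 fell and none rose (3 and none with the block; median log2 fold change -0.03). Tk1, a thymidine kinase gene, stood at 64.2, 68.9 and 67.6 CPM in vehicle and at 53.9, 57.3 and 61.8 CPM in 4OHT cells (log2 fold change -0.21, edgeR adjusted p = 0.0309). The call of Tk1 was lost in edgeR without vehicle replicate 2 or 3 (adjusted p = 0.102 and 0.101) and without 4OHT replicate 1 or 2 (0.239 and 0.0517), and in each of these 4 fits edgeR called 0 genes of the list. Without 4OHT replicate 2 the list had 0 genes higher and 3 lower at an unadjusted p under 0.05. Without vehicle replicate 1 or 4OHT replicate 3 edgeR called 3 falls. Pcna, the sliding clamp, and Mcm5, a helicase subunit, both had log2 fold changes of -0.16 (edgeR adjusted p = 0.0533 and 0.0653, and 0.00803 and 0.00462 with the block).

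Genes for the turnover of p27 and of D cyclins, ubiquitin ligase subunits and their regulators, gave 0 calls among 13 in edgeR and in DESeq2 (1 rise and 1 fall in edgeR with the block; median log2 fold change 0.01). At an unadjusted p under 0.05 edgeR had 1 of them higher and 1 lower, and DESeq2 0 and 1. Fbxo31, which encodes an F-box protein that targets cyclin D1, had a log2 fold change of 0.2 (edgeR adjusted p = 0.0587, and 0.0068 with the block), and Skp1a, a core ligase subunit, one of -0.17 (edgeR adjusted p = 0.0974, and 0.00392 with the block). Ambra1, whose product directs a ligase to D cyclins, had one of 0.1 (edgeR adjusted p = 0.249). Of 4 partners of ARF 0 were called in edgeR and in DESeq2 (1 and 0 at an unadjusted p under 0.05). Trp53, the p53 gene, had a log2 fold change of 0.14 (edgeR adjusted p = 0.138, and 0.014 with the block).

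**Figure D4:**
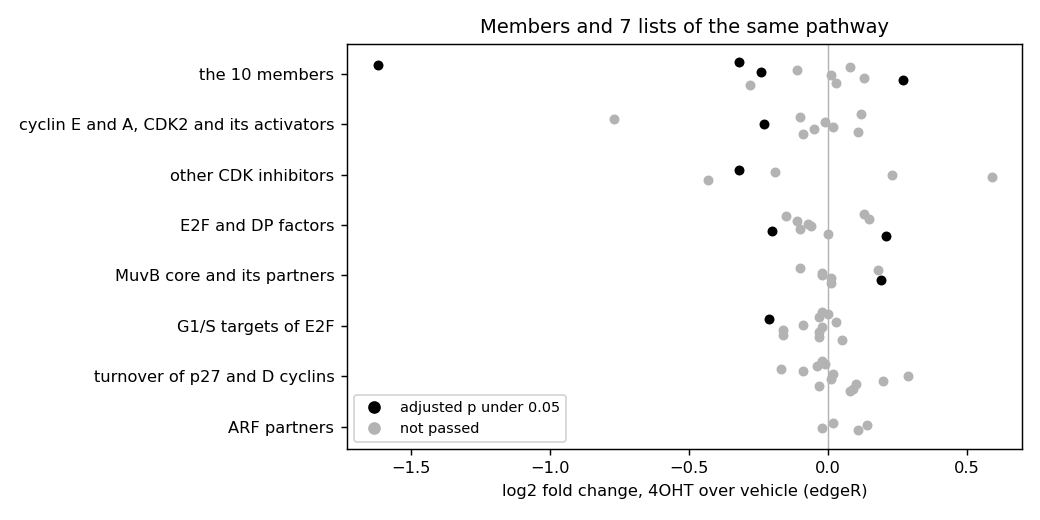
Log2 fold change of 4OHT over vehicle for the 10 members and for the genes of 7 lists of the same pathway, 1 point per gene, in black where the edgeR adjusted p is under 0.05. Outside the members the called genes lie between -0.32 (Cdkn1a) and 0.21 (Tfdp2).

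The 10 members were refitted under 13 other settings of tool, scaling, filter, block and left-out library. Ccnd2 and Ccnd1 passed in all 13, with log2 fold changes of -1.69 to -1.55 and of -0.35 to -0.31. Cdk6 passed in 11 and Rb1 in 9, with the same sign in all 13. Rbl2 passed in 2, and Ccnd3 and Cdk4 in 1 each.

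**Figure D5:**
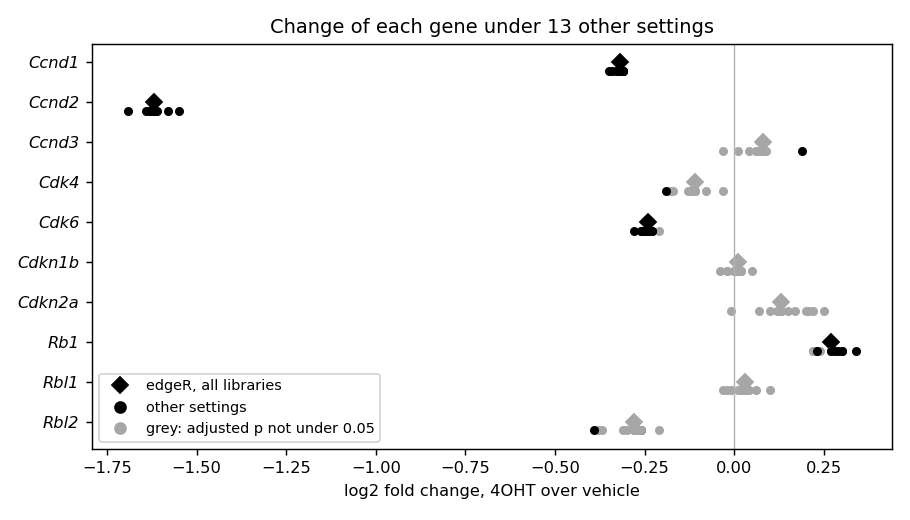
Log2 fold change of each gene with all libraries in edgeR (diamonds) and under 13 other settings (dots), in grey where the adjusted p is not under 0.05. The values of Ccnd2 and Ccnd1 stay in narrow ranges away from 0, while those of Cdkn1b, Cdkn2a, Rbl1 and Ccnd3 fall on both sides of it.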

How the data were processed

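The authors deposited whole-number read counts for each gene symbol. STAR, DESeq and mm9 are named per the submitters' processing notes, without versions. Totals per library vary widely, so the counts were taken as unscaled. The sources used here name no counting tool, annotation or strand setting. Genes were kept with filterByExpr in edgeR 4.0.16 under R 4.3.3 (minimum count 10), scaled with TMM and fitted with the quasi-likelihood test on both groups (prior count 0.125), with Benjamini-Hochberg adjustment over 14458 genes and a threshold of 0.05. The procedure was tested on simulated data, where the share of false calls lay above the threshold of 0.05. Calls with an adjusted p near that threshold are thus less certain. Intervals are at the 95% level. DESeq2 1.42.0 and limma 3.58.1 served as alternatives, as did other scalings and filters, a replicate block and leaving out each library.

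The members and the lists were chosen with earlier results of these data known. Named genes are all members, Nanog, and up to 4 genes per list with the smallest adjusted p. Genes of the count table that overlap a member were named in addition. Other opposite-strand overlaps have no row there under their symbols. They are Gm45464 (11.8% of the Rbl2 exon bases), Gm43126 (3.95% of Ccnd2) and Gm17590 (2.63% of Cdk6). Shares within families used counts per kilobase of GENCODE vM21 exons on GRCm38 (23644 of 23999 symbols matched) and exact permutation over samples. No coordinate was carried between assemblies. No transcript of another gene matched 50% or more of a member's longest transcript at 95% identity (blastn 2.17.0).

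Same-numbered samples correlated in their deviations from the group means at 0.57, 0.15 and 0.39 over 3632 genes with log2 CPM above 6. Each exceeds 0.1, so a pairing by number is possible, though no label says what the numbers mark. Among pairs of unlike number, vehicle 2 and 4OHT 3 gave 0.45, a value above the same-numbered 0.15 and 0.39. The remaining unlike pairs lay between -0.56 and 0.02. The correlations therefore do not single out a pairing by number, and the block serves as an alternative only. Blocked values stand beside results whose call or count they change.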

Additional observations from a re-analysis of the deposited data

How the results depend on the processing

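Of the 10 genes, edgeR called 4 with all libraries, 3 lower and 1 higher. DESeq2 with all libraries called 2 (2 lower, 0 higher), and limma-voom with quantile normalization 3, with 0 higher (1 at an unadjusted p under 0.05). Over all genes DESeq2 called 933 (6.6%) and limma-voom 2088 (14.4%), against 3233 (22.4%) in edgeR. With 1 library left out edgeR called 2 to 6 members, of which 0 to 2 were higher and 2 to 4 lower. The lowest count came without vehicle replicate 1 and the highest without 4OHT replicate 1, where 17.8% and 25.6% of all tested genes passed, within a range of 16% to 27.2% over the 6 libraries left out. In the pathway lists 6 genes were called with all libraries, 1 in DESeq2, 13 with the replicate block, and 1 to 11 with 1 library left out (1 without vehicle replicate 2, 2 without vehicle replicate 3, 11 without 4OHT replicate 1). DESeq2 without 4OHT replicate 2, an alternative chosen after seeing the data, called 4 members and 5 list genes beside 14.9% of all genes it tested. The replicate block called 5 members and 28.2% of all tested genes, adding Rbl2 at an adjusted p of 0.049, and changed no other call among the members. The difference in the share of Rbl1 was 2.8 points with all libraries, and ran from -2.32 (without 4OHT replicate 2) to 5.86 with 1 library left out. The other 6 shares kept their direction under every length and left-out library tried. For these differences the cause was not tested. The depth of 4OHT replicate 2 limits its values for Rbl2, Cdkn2a, Ccnd2 and Rb1, which rest on 1 to 10 reads. Those of Rbl1, Cdkn1b and Cdk6 rest on 13, 14 and 18 reads.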
